A study of Mus musculus with 9 samples.

Results

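The kinesin motor family was followed through every gene whose symbol is Kif plus a digit. The tables of mouse oocyte transcripts held 40 such symbols among 24736 genes. By role, 13 of the 40 are spindle kinesins, 15 are transport kinesins, and 10 belong to cilia, flagella or other functions. The remaining 2 are Kif16bos, an antisense RNA, and Kif4-ps, a pseudogene. Kif1bp, counted among the 10, encodes a protein that binds kinesins and has no motor of its own.

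All 9 libraries came from female ICR mice, an outbred strain, labelled as 4 to 5 weeks old, without saying at which point of the experiment. Each library was made from 15 oocytes of 1 mouse, and each group had 3 mice. The control mice were not stressed. Mice of the stress group met a stressor every day in a chronic unpredictable mild stress model, for the same 6 weeks as the third group, by the labels. The third group, called KYZY, was stressed for 6 weeks and then received 0.1 ml of the herbal decoction Kai Yu Zhong Yu by gavage each day for 4 weeks. All mice, controls included, were superovulated with 7.5 IU of PMSG and 7.5 IU of hCG. Oocytes at the second meiotic metaphase (MII) were taken from the oviducts 16 hours after hCG and freed of cumulus cells with hyaluronidase. No group was stressed and given a vehicle, and the labels describe other sequencing for the KYZY libraries than for the control and stress libraries. In any comparison with the KYZY group, the decoction, the gavage, the later collection and the sequencing cannot be told apart.

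Kinesins are motors that walk along microtubules or take them apart, using energy from ATP. Spindle kinesins build the bipolar spindle, move chromosomes and form the central spindle on which a cell divides. Transport kinesins carry organelles, vesicles and messenger RNA. An MII oocyte is arrested with an assembled spindle and divides again, very unequally, only after fertilization. Its transcripts were made earlier, during growth, and are stored and translated or degraded without new synthesis.

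Kinesin motors hold an ATP-binding loop, a feature they share with many other families of nucleotide-binding proteins. Members from both roles are shown because their genes hold the same loop pattern across otherwise different sequences. A pattern of GG, 4 free bases, AC, 7 free bases, GG, 1 free base, AA and 4 free bases was searched in the reading frame of each longest coding sequence, on the coding strand only. Where a gene held 2 matches, as Kif2c and Kif14 did, the match with GG 1 base after AC was taken. The pattern was found in 35 of the 38 coding Kif genes measured here. Among all annotated coding genes of the mouse it was found in 330 of 21501 (1.53%), 294 of which carry other symbols. The 330 take in any annotated Kif gene outside the 38. The 3 coding Kif genes without a match were Kif1bp, Kif26a and Kif26b. Capitals mark the last 9 bases, the final 3 codons of the loop, which in its textbook form encode glycine, lysine and threonine or serine.
Kif23: ggcgtgacgggaagtGGAAAAACC
Kif14: ggccagactggctctGGAAAGTCC
Kif2c: ggacagacaggcagtGGGAAGACA
Kif18b: ggcgccaccggggctGGGAAGACA
Kif11: ggtcagactggcactGGAAAAACT
Kif17: ggccagacaggcagtGGGAAGTCT
Kif5c: gggcagacttcatcaGGAAAAACT
Each of the 7 lies within 1 coding exon of GRCm38: Kif23 at chr9:61937178-61937201 (minus strand, exon 5 of 23), Kif14 at chr1:136471546-136471569 (plus, exon 2 of 29), Kif2c at chr4:117167297-117167320 (minus, exon 11 of 20), Kif18b at chr11:102915666-102915689 (minus, exon 3 of 16), Kif11 at chr19:37384736-37384759 (plus, exon 4 of 22), Kif17 at chr4:138268984-138269007 (plus, exon 2 of 15) and Kif5c at chr2:49680203-49680226 (plus, exon 3 of 26). In Kif23 the loop began 11.6% into the coding sequence, and in Kif17 it began 8.66% in. In Kif2c, a kinesin whose motor sits in the middle of the protein, it began 47.5% in.

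Levels are given as CPM, the field's usual unit for counts, relative to the TMM-scaled total of each library, and between genes only as CPM per kilobase of the longest annotated transcript. The deposited counts added up to 46324094 to 106990821 per library, and 13257 to 15802 genes had a value above 0. Kif symbols took 0.233% to 0.354% of the counts. A single read pair appeared to be worth about 4 counts. A gene at 0 was therefore given a limit of 3 pairs, which came to 0.105 to 0.245 CPM per library and covers counting error only. All 12 oocyte markers were above 0 in every library and summed to 21008 to 39708 CPM. Of 30 cumulus and granulosa markers, 11, 17 and 28 were above 0 in control 1, 2 and 3. In the stress libraries the numbers were 12, 20 and 25, and in the KYZY libraries 15, 27 and 28. Areg and Pgr were at 0 in all 9. Leaving out Serpine2 and Sdc1, the most abundant of the list, the other 28 summed to 24.2, 41.2 and 373 CPM in control, 21.4, 35.4 and 82.3 CPM in stress, and 38.0, 388 and 693 CPM in KYZY libraries. Markers of other cells moved as well: all 15 stroma and endothelium markers were above 0 in control 3 and KYZY 3, against 9 to 14 elsewhere, with sums of 105 to 184 CPM over the 9 libraries. Most of each stroma sum was Myh11 alone, at 71.0 to 127 CPM. Of 16 oviduct epithelium markers, 15 were above 0 in control 3 and KYZY 3, against 8 to 13 elsewhere. Their sums of 282 to 512 CPM were mostly Cdh1, at 243 to 500 CPM. The 15 blood and immune markers summed to 75.2 CPM in KYZY 2 and to 14.2 CPM or less in the others. Control 3, stress 3, KYZY 2 and KYZY 3 thus carried more cumulus marker RNA than the other 5. Some of the results that rest on them are also given without them. RNA was measured per pool of oocytes, so fewer cells of a type and less RNA per cell cannot be told apart.

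Of the 40 Kif symbols, 32 were above 0 in all 9 libraries and 24 were above 1 CPM in all 9. Kif12 and Kif2b, a spindle kinesin close to Kif2a and Kif2c, were at 0 in every library. The other members too low to be fitted were Kif16bos, Kif19a, Kif5a, Kif6 and Kif7, each with at most 28 counts in any library. This left 33 members in the fit, chosen by a filter on low counts over 13890 genes. Kif1a, the neuronal synaptic vesicle motor, passed with no more than 22 counts in any library and is not interpreted. The reads carry no strand, and 10 members overlap another measured gene, among them Kif20a with Cdc23, Kif18a with Mettl15, Kif17 with Sh2d5 and Kif4 with Pdzd11. Reads of Kif4 and of its pseudogene Kif4-ps may also have been exchanged.

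The central spindle motor Kif23 was by far the most abundant member. Kif23, a subunit of centralspindlin, which bundles microtubules between separating chromosomes, lies at chr9:61917277-61946810. It stood at 1736, 995 and 1524 CPM in control 1, 2 and 3, at 1380.0, 1251 and 2728 CPM in stress, and at 1582, 2451 and 1384 CPM in KYZY. It was the highest Kif gene in 9 of 9 libraries, and stress 3 and KYZY 2 held the highest values. Per length it reached 491.5 CPM per kilobase, against 29.4 for Kif17 in second place. Its share of the whole family's per-length level ran from 58.3% to 76.7%, with the longest transcript of each gene. By CPM it ranked 85 among all genes fitted.

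After Kif23, the order by level per length was Kif17 (29.4 CPM per kilobase), Kif20a (28.3), Kif4 (23.8), Kif3a (23.7), Kif14 (21.4), Kif2c (18.4), Kif22 (17.1) and Kif5b (10.2). Each step down among these 8 was smaller than the larger SD of the pair over 9 libraries, so neighbours in this order did not differ beyond their spread. The next members were Kif20b (8.67), Kif24 (8.61), Kif18a (7.96) and Kif11 (7.03), then Kif5c (4.75), Kif18b (4.40), Kif1bp (3.79), Kif16b (2.85) and Kif1b (2.26 CPM per kilobase). Beyond the first step, the steps larger than the spread were Kif11 over Kif5c, Kif1b over Kif2a, Kif3b over Kif21b and Kif9 over Kif13a. With the median transcript length in place of the longest, Kif23 remained first and Kif4, Kif22, Kif14 and Kif2c followed, so the order below Kif23 depended on the transcript assumed. A level per length also depends on how evenly the full-length cDNA was covered, which was not tested.

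**Figure D1:**
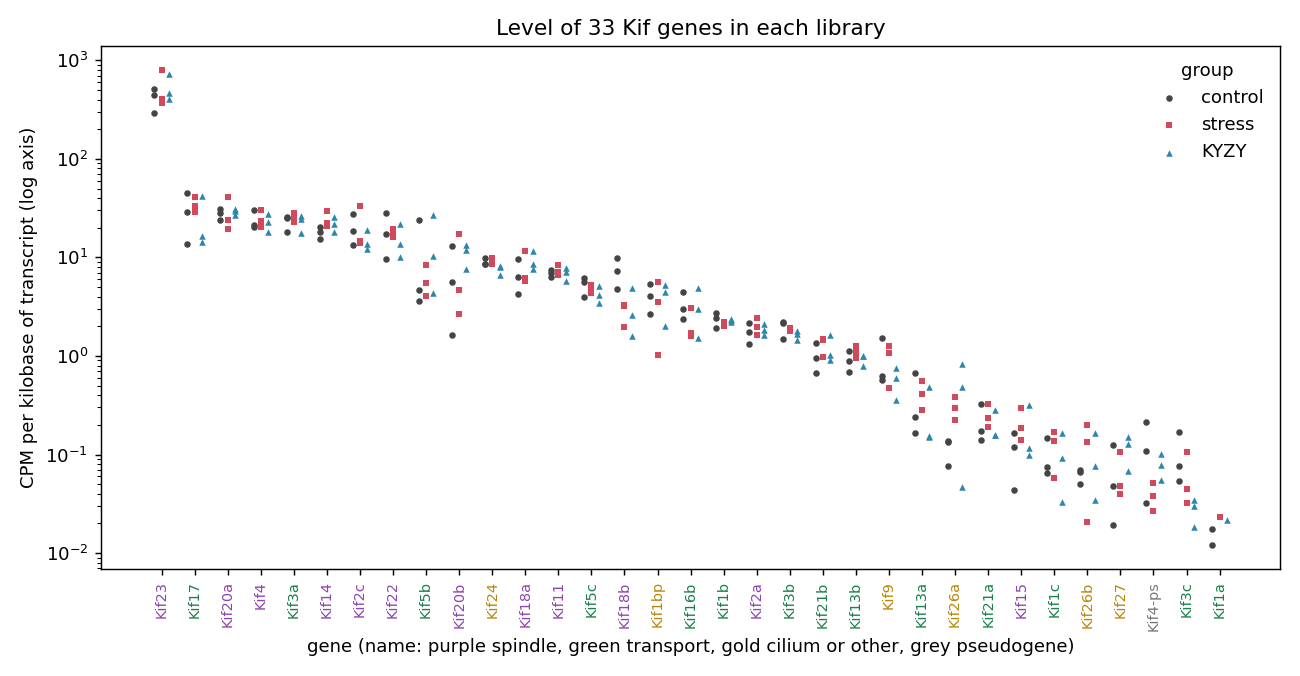
Level per transcript length (CPM per kilobase, log axis) of the 33 fitted Kif genes, with 1 point per library coloured by group and gene names coloured by role; values of 0 (in Kif1a) are not drawn. Kif23 averages 491.5 CPM per kilobase, and the next 8 genes average between 10.2 and 29.4.

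The other abundant spindle kinesins serve chromosome arms, the midzone and microtubule ends. Kif20a, which brings the chromosomal passenger complex to the midzone, was at 104, 88.2 and 113 CPM in control, 71.4, 88.4 and 149.7 CPM in stress, and 108, 114 and 98.8 CPM in KYZY libraries. Kif4, a motor on chromosome arms, was at 152, 107 and 100.3 CPM in control, 116, 101 and 149 CPM in stress, and 113, 136 and 89.9 CPM in KYZY. The 3 groups overlapped for both genes, and stress 3 held the highest Kif20a value. Kif22, a second motor bound to chromosomes, was at 102, 61.5 and 34.2 CPM in control, 70.2, 64.0 and 57.6 CPM in stress, and 77.6, 48.5 and 36.1 CPM in KYZY. Kif2c, which shortens microtubules at centromeres, was at 77.9, 52.1 and 37.7 CPM in control, 41.9, 40.2 and 93.9 CPM in stress, and 54.0, 39.0 and 34.3 CPM in KYZY. Spread within groups was wider than the distance between them for both, and the highest Kif2c value again lay in stress 3.

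Kif11, the tetrameric motor that pushes spindle poles apart, was the steadiest abundant member and is named here after its values were seen. It stood at 33.5, 35.5 and 30.8 CPM in control, 40.1, 31.6 and 34.0 CPM in stress, and 37.5, 34.5 and 27.5 CPM in KYZY. Its coefficient of variation over the 9 libraries was 11.0%, against a median of 39.2% over the fitted Kif genes and 33.4% over all fitted genes. Kif1b, Kif24 and Kif3b were similarly even, at 11.1%, 11.3% and 14.0%. Among members above a mean of 10 CPM, the other end was held by Kif5b at 87.5%, Kif20b at 63.0% and Kif18b at 61.5%. Kif20b, a cytokinesis motor also singled out after its values were seen, was at 31.6, 9.06 and 73.0 CPM in control, 25.7, 14.9 and 96.0 CPM in stress, and 42.8, 66.3 and 74.5 CPM in KYZY. Its highest value was 10.6 times its lowest, and the 4 libraries with the most cumulus marker RNA were its 4 highest. Whether RNA of cumulus cells had a part in this was not tested.

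Among transport kinesins the abundant members were 2 subunits of the kinesin-2 class, 2 kinesin-1 heavy chains and 2 kinesin-3 motors. Kif17, a kinesin-2 known from dendrites and cilia, was at 157, 101 and 47.6 CPM in control, 142, 116 and 100.1 CPM in stress, and 144, 57.3 and 49.1 CPM in KYZY. Its 3 lowest values were in control 3, KYZY 2 and KYZY 3, the libraries with 373 to 693 CPM of cumulus markers. The same 3 libraries were the lowest for the spindle kinesins Kif22 and Kif2c, so this was not particular to Kif17. Kif3a, which pairs with Kif3b in the heterotrimeric kinesin-2, was at 79.2, 81.3 and 57.5 CPM in control, 72.9, 76.7 and 89.8 CPM in stress, and 82.4, 78.1 and 56.0 CPM in KYZY. Its partner Kif3b was less abundant per length, at 1.81 against 23.7 CPM per kilobase.

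Kif5b, the widely expressed kinesin-1 heavy chain, was at 27.9, 21.9 and 145 CPM in control, 33.2, 24.6 and 51.1 CPM in stress, and 26.4, 62.6 and 162 CPM in KYZY. The 4 libraries with the most cumulus marker RNA were again the 4 highest, and the other 5 lay within 21.9 to 33.2 CPM. The top pair, control 3 and KYZY 3, also held the stroma transcripts Dcn (16.3 and 19.9 CPM) and Acta2 (10.7 and 16.6 CPM), which were at 0.611 CPM or less in the other 7 libraries. The part of other cells in the Kif5b values was not tested. Kif5c, a kinesin-1 heavy chain best known from neurons, did not follow this order. It was at 26.9, 38.8 and 42.6 CPM in control, 36.3, 31.5 and 29.7 CPM in stress, and 28.2, 23.6 and 35.4 CPM in KYZY libraries. The third kinesin-1 heavy chain, Kif5a, had at most 9 counts in any library.

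Kif16b, which moves early endosomes, was at 15.2, 19.3 and 28.6 CPM in control, 11.0, 10.3 and 19.8 CPM in stress, and 19.0, 9.76 and 31.3 CPM in KYZY. Kif1b, a carrier of mitochondria and synaptic vesicle precursors, was at 19.5, 24.9 and 28.2 CPM in control, 20.6, 21.9 and 22.4 CPM in stress, and 24.3, 22.6 and 23.9 CPM in KYZY. Kif16b was highest in the third library of each group, whereas no Kif1b value was more than 1.44 times another.

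**Figure D2:**
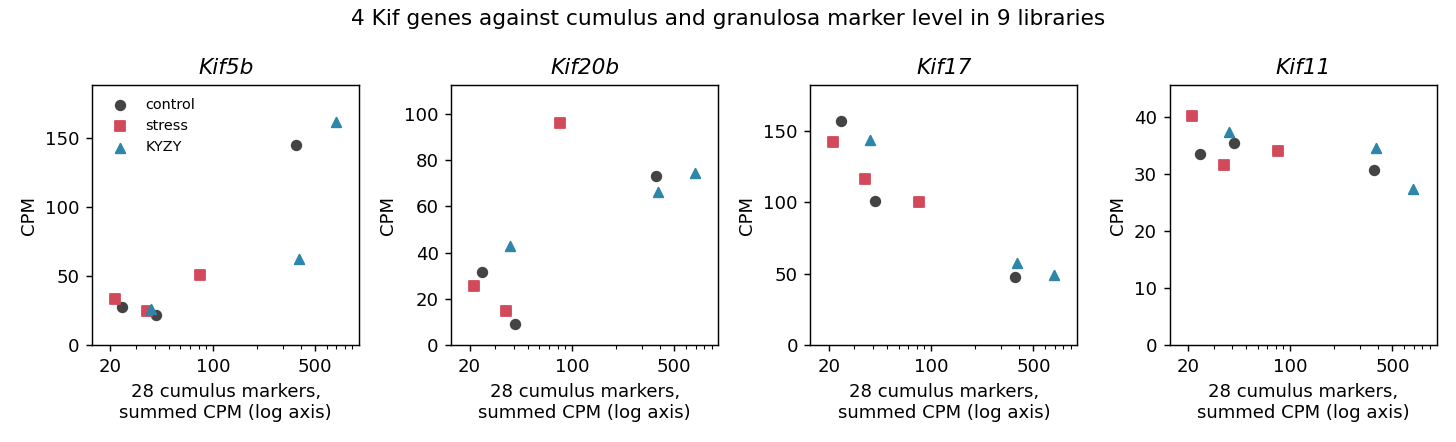
CPM of 4 Kif genes (vertical axes from 0) against the summed CPM of 28 cumulus and granulosa markers (log axis), 1 point per library. Kif5b and Kif20b are highest in the 4 libraries with the most marker RNA, as is Kif18a (not drawn). Kif17 is lowest in the 3 libraries at 373 CPM or more, as are Kif22 and Kif2c (not drawn). Kif11 stays between 27.5 and 40.1 CPM.

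Spindle kinesins outweighed transport kinesins in every library. Their summed level per length was 7.75, 5.47 and 7.79 times that of transport kinesins in control 1, 2 and 3. The ratio was 6.30, 6.44 and 12.4 in stress and 7.09, 13.7 and 7.01 in KYZY libraries. Group means were 7.01 ± 1.33 (SD, n = 3), 8.37 ± 3.47 and 9.26 ± 3.82, and the ranges overlapped. Kif23 carried most of the excess. Without it the ratio ran from 1.47 to 2.37, still above 1 in all 9 libraries. All these ratios rest on the longest transcript of each gene, and their size depends on that choice. With the median transcript length Kif23 stood at 2381 CPM per kilobase, against 491.5 with the longest.

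The 3 comparisons below asked whether stress altered these transcripts and whether the KYZY group differed from stressed or from control mice. Each pair of comparisons shares a group, so their values are set side by side and do not support each other. Tests were edgeR quasi-likelihood F tests over all 13890 fitted genes, 2-sided, with Benjamini-Hochberg adjustment and a threshold of 0.05. The p values measure the spread between mice.

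In stress against control, no Kif gene was called. The edgeR test called 0 of 33 members and 0 of 13890 genes (0%), while 1 member and 373 genes had an unadjusted p under 0.05. DESeq2 called 21 genes and limma voom 0, with no Kif gene in either. Groups did not overlap for 3 of 33 members (9.09%), against 7.88% of all fitted genes, so the family's share was near the background. Those 3 were the spindle kinesins Kif18b and Kif14 and the atypical Kif26a.

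Kif18b had the smallest p of the family. Kif18b, a kinesin-8 that limits the length of astral microtubules together with Kif2c, lies at chr11:102905518-102925134 on the minus strand. It was at 33.0, 24.2 and 15.9 CPM in control 1, 2 and 3, at 10.7, 10.9 and 6.53 CPM in stress, and at 8.69, 5.33 and 16.4 CPM in KYZY. Every stress value was below every control value, and only KYZY 3 reached into the control range. Means were 24.4 ± 8.53 (SD, n = 3), 9.40 ± 2.48 and 10.1 ± 5.68 CPM. The difference on the log2 scale between stress and control was −1.37 ± 0.421 (SE) (edgeR adjusted p = 1.00). It was the 1 member with an unadjusted p under 0.05 and did not pass the test.

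With the 4 libraries of high cumulus marker RNA left out together, Kif18b passed. The values compared were then 33.0 and 24.2 CPM in control, 10.7 and 10.9 CPM in stress, and the lone KYZY value of 8.69 CPM, which was assumed to vary like the others. Summed cumulus markers in these 5 libraries lay within 21.4 to 41.2 CPM. Control 3, the lowest control value (15.9 CPM), was left out, as was KYZY 3 (16.4 CPM), the only KYZY value within the control range. The lowest stress value (6.53 CPM in stress 3) and the lowest KYZY value (5.33 CPM in KYZY 2) were left out too. A fit without these values cannot settle whether Kif18b differs between the groups. On the log2 scale stress differed from control by −1.39 ± 0.213 (edgeR adjusted p = 0.0107) and KYZY from control by −1.69 ± 0.279 (edgeR adjusted p = 0.0203). In that fit Kif18b was the only Kif gene called in either comparison. The fit had 2 residual degrees of freedom and called 1.04% of 14220 genes in stress against control and 0.837% in KYZY against control. In KYZY against stress it called 0.809% of genes and no Kif gene. The size of the difference in stress against control hardly moved (−1.37 and −1.39), while its standard error was smaller. In KYZY against control the difference moved from −1.27 in the main fit to −1.69, which rests on the lone KYZY library.

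Kif14, which recruits the division machinery at the midbody, was at 182, 139 and 160.4 CPM in control, 198, 186 and 267 CPM in stress, and 229, 196 and 161 CPM in KYZY. All stress values exceeded all control values, by a log2 fold change of 0.44 ± 0.233 (edgeR adjusted p = 1.00). The Kif14 value was 0.26 without stress 3 and 0.27 without the 4 libraries. Kif26a, which binds microtubules but lacks the loop letters shown above, was at 0.959, 0.917 and 0.534 CPM in control, 2.65, 2.04 and 1.57 CPM in stress, and 3.38, 5.68 and 0.326 CPM in KYZY. Its log2 fold change was 1.38 ± 0.763 in stress (edgeR adjusted p = 1.00). The pseudogene Kif4-ps, next by p, was at 0.397, 0.783 and 0.117 CPM in control, 0.0981, 0.140 and 0.186 CPM in stress, and 0.284, 0.367 and 0.204 CPM in KYZY. Most of these values lie near the limit of 3 read pairs, and no fold is drawn from them.

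By role, 10 of 12 fitted spindle kinesins and 7 of 14 transport kinesins had a positive log2 fold change in stress against control. The medians were 0.15 and 0.03, beside −0.03 over all fitted genes, of which 46.0% were positive. Leaving out stress 3 brought the spindle median to −0.12, and leaving out control 2 brought it to −0.02. With the 4 libraries of high cumulus marker RNA left out it was −0.02. For transport kinesins the median became −0.14 when control 1 was left out and −0.03 when stress 3 was. The direction of either role's median therefore rested on single libraries. Among the 6 fitted members for cilia and other functions, 4 had a positive difference, with a median of 0.04.

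**Figure D3:**
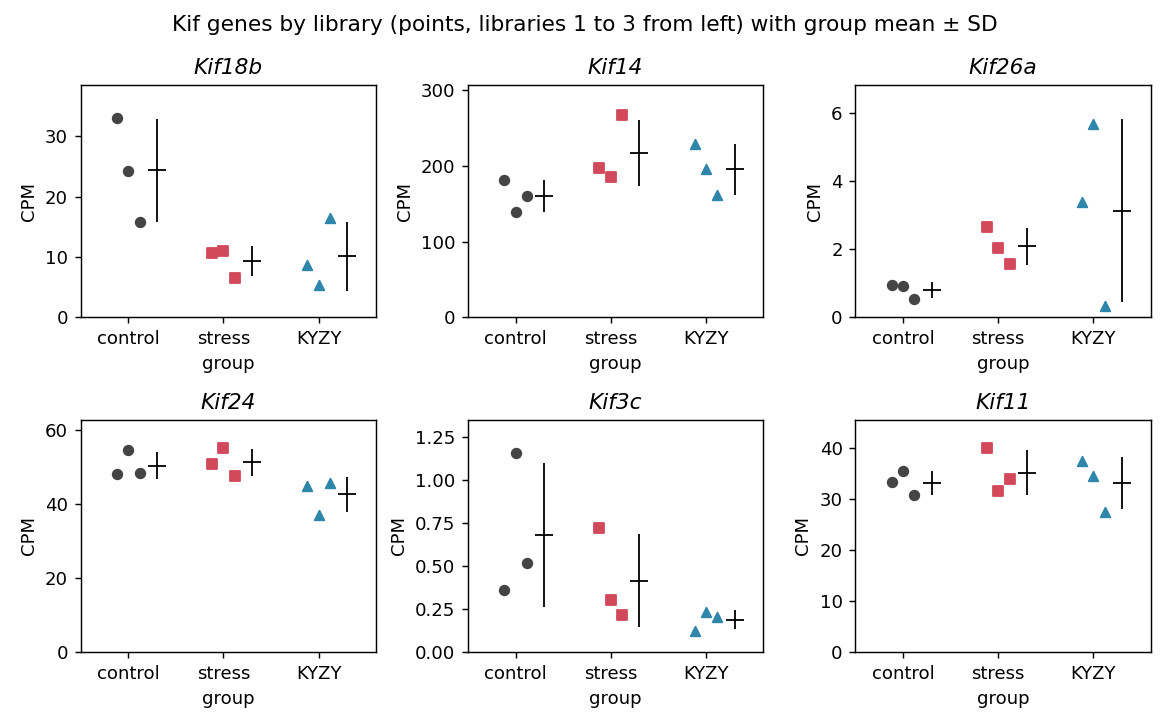
CPM of 6 Kif genes (vertical axes from 0) in the 3 groups, with 1 point per library and the group mean ± SD beside it. Kif18b lies at 15.9 to 33.0 CPM in control and at 6.53 to 10.9 CPM in stress, while the 3 groups of Kif11 overlap.

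In KYZY against stress, again no Kif gene was called. The edgeR test called 0 of 33 members and 0 of 13890 genes (0%), and 0 members and 553 genes had an unadjusted p under 0.05. DESeq2 called 13 genes and limma voom 1, with no Kif gene among them. Groups did not overlap for 4 of 33 members (12.1%), against 9.19% of all genes: Kif1b and Kif4-ps were higher and Kif24 and Kif3b lower. Kif24, which sits on centrioles and holds back cilium formation, was at 48.3, 54.7 and 48.4 CPM in control, 51.0, 55.2 and 47.8 CPM in stress, and 45.0, 37.2 and 45.8 CPM in KYZY. Its KYZY values lay below all 6 others, by a log2 fold change of −0.27 ± 0.174 against stress (edgeR adjusted p = 0.935). Kif3b was at 10.1, 10.5 and 10.8 CPM in stress and at 9.44, 9.98 and 8.24 CPM in KYZY. Control values of Kif3b, at 8.42, 12.4 and 12.1 CPM, spanned both groups.

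Kif9, a motor of sperm flagella, was at 1.82, 4.83 and 1.99 CPM in control, 4.04, 3.38 and 1.52 CPM in stress, and 2.38, 1.13 and 1.92 CPM in KYZY. Its log2 fold change against stress was −0.72 ± 0.503 (edgeR adjusted p = 0.935), and the groups overlapped. The Kif9 value was −0.42 without stress 1, −0.47 without KYZY 2 and −0.14 with the cumulus marker level as a covariate. With the 4 libraries of high cumulus marker RNA left out it was −0.62. Kif5b had the largest positive value of the family, 1.20 ± 0.896 (edgeR adjusted p = 0.935). Without the 4 libraries of high cumulus marker RNA, the Kif5b value was −0.12 ± 0.269. Kif18b differed little between KYZY and stress, by 0.11 ± 0.415, and its sign turned when single libraries were left out. Of the spindle kinesins 5 of 12 were positive and of the transport kinesins 3 of 14, with medians of −0.10 and −0.17 beside 0.01 over all genes, of which 50.8% were positive. The spindle median was 0.05 without stress 3, 0.02 without KYZY 3 and 0.25 without the 4 libraries.

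In KYZY against control, 0 of 33 members and 0 of 13890 genes (0%) passed the edgeR test, and 2 members and 380 genes had an unadjusted p under 0.05. DESeq2 called 3 genes and limma voom 0, none of them a Kif gene. Groups did not overlap for 2 of 33 members (6.06%), Kif24 and Kif3c, both lower, against 7.23% of all genes. Kif18b had a log2 fold change of −1.27 ± 0.420 (edgeR adjusted p = 0.996) and Kif26a one of 1.96 ± 0.776 (edgeR adjusted p = 0.996). Kif26a was above the control range in KYZY 1 and 2 and below it in KYZY 3, and its value was 1.21 without KYZY 2. Kif3c, a kinesin-2 subunit known from neurons, was at 0.364, 1.16 and 0.521 CPM in control, 0.724, 0.305 and 0.217 CPM in stress, and 0.126, 0.235 and 0.204 CPM in KYZY. The log2 fold change of Kif3c was −1.85 ± 0.837 against control (edgeR adjusted p = 0.996), with KYZY values near the limit of 3 read pairs. Leaving out control 2 brought it to −1.22. Kif24 differed from control by −0.24 ± 0.174 (edgeR adjusted p = 0.996). Positive differences were found in 7 of 12 spindle and 4 of 14 transport kinesins, with medians of 0.08 and −0.08 beside 0.00 over all genes, of which 49.7% were positive.

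**Figure D4:**
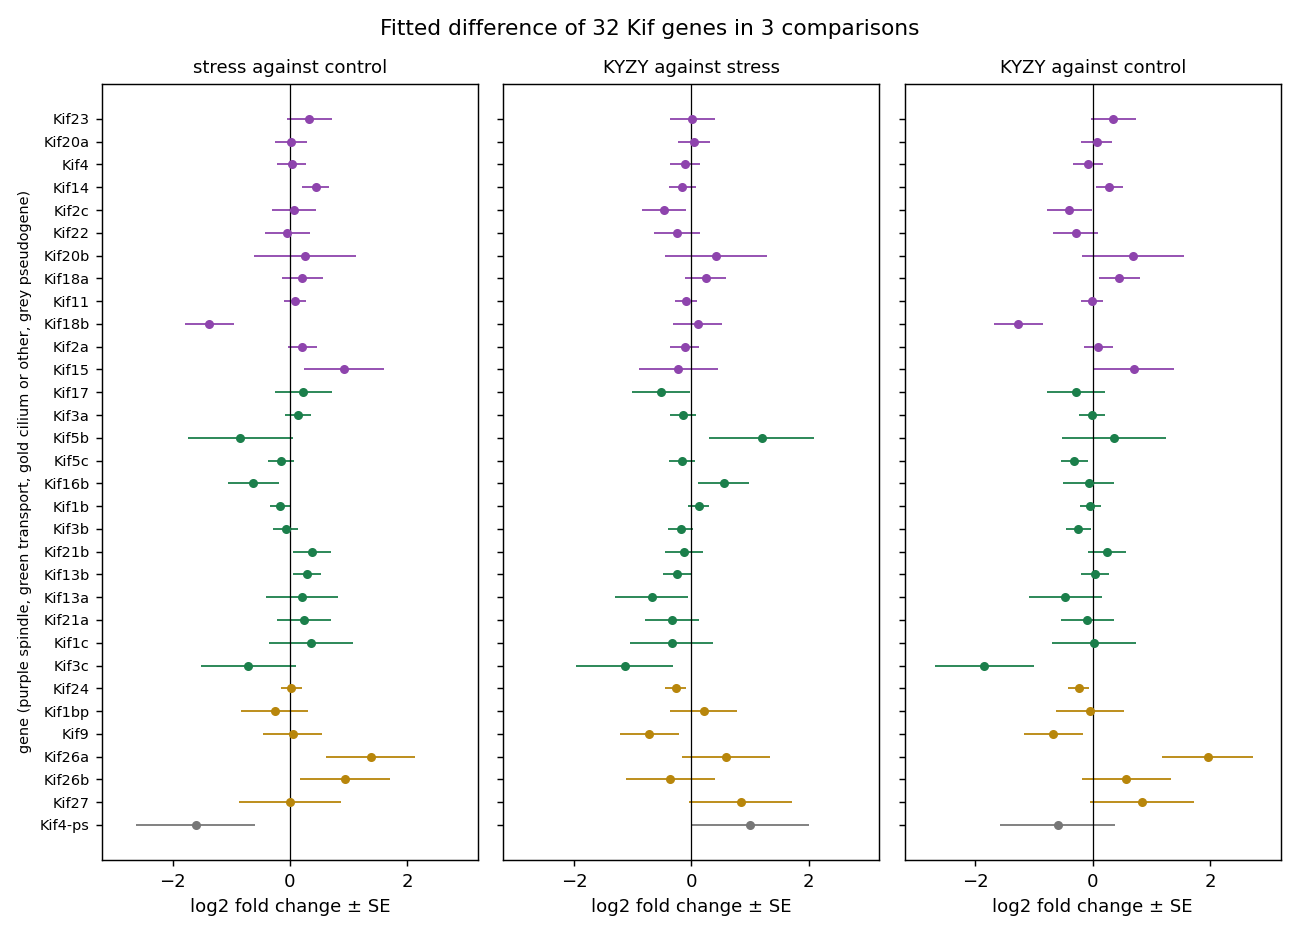
Log2 fold change ± SE of 32 fitted Kif genes, coloured by role, in the 3 comparisons; Kif1a, near 0 counts, is left out. The error bars of most genes reach 0, and Kif18b lies at −1.37 in stress against control and −1.27 in KYZY against control.

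Stored oocyte messages are often held silent and later translated through the cytoplasmic polyadenylation element, a short sequence near the end of the 3′ untranslated region. The letters TTTTAT or TTTTAAT were searched on the transcript strand in the last 100 bases of the annotated region. They were found in 6 of 29 fitted Kif genes with such an end (20.7%) and in 19.5% of 12227 fitted genes, a share near the background. The 6 were Kif11, Kif18a, Kif20b, Kif26a, Kif26b and Kif27. The poly(A) signals AATAAA or ATTAAA were found in 25 of 29 (86.2%) against 80.3%. The ends of 3 spindle kinesins with the element and of 2 without it are shown, as the most abundant member and the one of smallest p are among those without. Both kinds of letters are in capitals.
Kif11: aattttttaaATTAAAttaTTTTAATtttt
Kif18a: TTTTATtacttggtatATTAAAgatgtaga
Kif20b: aaTTTTAATtcAATAAAtatatcagtaata
Kif18b: AATAAAcatctctgtctttggtgtcttctt
Kif23: caactgaAATAAAaaggcactaagagatgc
Their positions on GRCm38 are chr19:37421830-37421859 (plus) for Kif11, chr2:109341711-109341740 (plus) for Kif18a, chr19:34975706-34975735 (plus) for Kif20b, chr11:102905536-102905565 (minus) for Kif18b and chr9:61917280-61917309 (minus) for Kif23. A match describes the annotated end and says nothing about which ends the oocyte uses. The steady Kif11 and the variable Kif20b both hold the element. Kif18a, which damps chromosome movements, was at 41.3, 27.4 and 63.3 CPM in control, 37.2, 40.5 and 75.4 CPM in stress, and 50.0, 75.8 and 55.3 CPM in KYZY, and its groups overlapped.

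Partners of the motors were followed from lists of kinesins with other names, light chains and adaptors, dynein and dynactin, tubulins, and spindle proteins. None of the 4, 18, 24, 17 and 29 fitted members of these lists passed the edgeR test in any comparison, nor DESeq2 or limma voom. Unadjusted p values under 0.05 were found for 0, 2, 1, 0 and 0 of them in stress against control, for 0, 0, 0, 1 and 0 in KYZY against stress, and for 0, 1, 1, 0 and 1 in KYZY against control. Spindle proteins had a positive difference in 23 of 29 in stress against control, with a median of 0.15, beside 46.0% positive and a median of −0.03 over all fitted genes. In KYZY against stress 7 of 29 were positive, beside 50.8% of all fitted genes. For KYZY against control it was 16 of 29, beside 49.7%. The counts for stress against control and KYZY against stress share the stress libraries. How far they rest on single libraries was not tested.

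Cenpe, the kinetochore kinesin, was at 72.9, 24.2 and 221 CPM in control, 84.8, 36.8 and 453 CPM in stress, and 98.5, 280 and 252 CPM in KYZY, with its 4 highest values in the 4 libraries of high cumulus marker RNA, like Kif20b. Prc1, which bundles the midzone microtubules on which Kif23, Kif4, Kif14 and Kif20a act, was at 659, 428 and 588 CPM in control, 524, 622 and 1386 CPM in stress, and 642, 775 and 536 CPM in KYZY. Like Kif23 and Kif20a, Prc1 was highest in stress 3, the library without which the spindle kinesin median turned negative. Aurkc, the meiotic Aurora kinase, was at 76.4, 65.6 and 96.2 CPM in control, 208, 219 and 67.9 CPM in stress, and 244, 245 and 90.9 CPM in KYZY. Its groups overlapped through stress 3 and KYZY 3, and stress differed from control by a log2 fold change of 1.05 ± 0.481 (edgeR adjusted p = 1.00). Both of these libraries are among the 4 left out together, so a fit without the 4 drops the Aurkc values through which the groups overlapped. Nothing is drawn from that fit for Aurkc.

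Light-chain, dynein and tubulin genes ranged widely. In stress against control their log2 fold changes ran from −2.18 to 5.93 for light chains and adaptors, from −1.73 to 0.34 for dynein and dynactin and from −0.87 to 1.25 for tubulins. The highest was Klc3, a kinesin light chain at 0 in all 3 control libraries, at 0.172, 0.122 and 0 CPM in stress and at 0, 1.10 and 0.755 CPM in KYZY, from which no fold is drawn. Map7, a microtubule protein that recruits kinesin-1, was at 17.1, 16.5 and 18.2 CPM in control, 1.31, 1.92 and 17.9 CPM in stress, and 12.4, 38.2 and 13.5 CPM in KYZY. Stress 1 and 2 stood far below the other 7 Map7 values, whereas stress 3 lay within the control range, so the groups overlapped. Stress 3 is among the 4 libraries left out together, so a fit without the 4 cannot settle whether Map7 differs. Grip1, an adaptor of kinesin-1, was at 8.98, 8.95 and 8.54 CPM in control, 4.86, 5.25 and 7.31 CPM in stress, and 7.41, 8.02 and 7.43 CPM in KYZY. The 3 groups of Grip1 did not overlap, and the difference was −0.60 ± 0.220 (log2) between stress and control (edgeR adjusted p = 1.00) and 0.39 ± 0.220 between KYZY and stress (edgeR adjusted p = 0.935). Groups did not overlap for 2 of 18 light chains and adaptors in stress against control and for 1 of 18 in KYZY against stress. In KYZY against control it was 2 of 18. Over all fitted genes the shares were 7.88%, 9.19% and 7.23%. Dynlrb1, a dynein light chain, was at 11.9, 11.1 and 8.70 CPM in control, 7.21, 7.97 and 5.62 CPM in stress, and 7.94, 6.20 and 7.65 CPM in KYZY. Both other groups lay below control, by −0.61 ± 0.231 in stress (edgeR adjusted p = 1.00). Among 24 dynein and dynactin genes, 2 lay apart in stress against control, both lower, beside 7.88% of all fitted genes. In KYZY against stress 2 lay apart, both higher, beside 9.19%. In KYZY against control 1 was higher and 1 lower, beside 7.23%. The most abundant tubulins per length were Tubb3 and Tubb4b, at 716 and 670 CPM per kilobase, with overlapping groups.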

How the data were processed

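Full-length cDNA of 15 MII oocytes per mouse was made with SMART-Seq v4 and cut by Tn5, without molecular identifiers or strand, per the labels' protocols. The authors deposited expected counts, whole-number estimates per gene without normalization. The unit was read from the values. The submitters' processing notes name bcl2fastq 2.20, Trim Galore, HISAT2, StringTie, DESeq2, GRCm38 and mm10, without roles. Values of 4 were over-represented (401 genes in control 1, against 53 at 3 and 224 at 5), which puts a read pair at about 4 counts.

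Counts were scaled by TMM and filtered by filterByExpr (minimum count 10, minimum total 15), which kept 13890 genes and dropped 10846. They were fitted in edgeR 4.0.16 (R 4.3.3) with 1 mean per group over 9 libraries, 6 residual degrees of freedom and robust estimation. The common biological coefficient of variation was 0.611. The code was tested on simulated data, where 0% of 2-fold changes were called in each comparison and 31% to 39% of 4-fold changes. A count of 0 called genes therefore does not show that differences of such size are absent. DESeq2 1.42.0, limma voom 3.58.1 with library weights, other filters and scalings, counts divided by 4, a cumulus marker covariate, a replicate block and fits without libraries were alternatives. Positions are those of RefSeq for GRCm38.p6, and transcript lengths and sequences are those of GENCODE M21 on GRCm38.

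Library numbers were taken from the titles. Same-numbered control and stress libraries deviated together from their group means, with correlations across genes of 0.312, 0.185 and 0.346. Control 2 correlated more with stress 1 (0.233), so a pairing of these groups by number was not settled. The main fit held no block, and a block in these groups was tried as an alternative. With KYZY the numbers were not taken to pair, since not every pair passed 0.1: the correlations were 0.506, −0.144 and 0.559 for control 1, 2 and 3, and 0.402, −0.146 and 0.171 for stress 1, 2 and 3.

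Members, roles, partner lists and the rule for named genes were chosen with earlier results of these data known. The rule names the 6 spindle and 6 transport kinesins of highest level per length and the 4 Kif genes of smallest p in each comparison. It also names called members and members whose groups do not overlap in both stress against control and KYZY against stress, which none did. Partner genes are named only among the 2 of highest level or of smallest p in their list. The 4 libraries left out together were known from those results to stand apart.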

Additional observations from a re-analysis of the deposited data

How the results depend on the processing

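The number of Kif genes called was 0 in each comparison with every alternative but 1. Without control 3, stress 3, KYZY 2 and KYZY 3 it was 1 in stress against control and 1 in KYZY against control, Kif18b in both, and 0 in KYZY against stress. That fit had fewer samples and 2 residual degrees of freedom. It also left out the lowest control value of Kif18b and the only KYZY value within the control range, so it cannot settle whether Kif18b differs. Leaving out 1 library at a time left each count at 0. With the replicate block over all 9 libraries, and with a block in the control and stress libraries alone, which was chosen after seeing the data, the count stayed at 0. With the second block, the log2 fold change of Kif18b in stress against control was −1.35 ± 0.193 (edgeR adjusted p = 0.266). Over all genes the first block called 0 in each comparison and the second called 1 of 12921 genes, against 0 without a block. Over all alternatives the log2 fold change of Kif18b ran from −1.60 to −1.09 in stress against control (edgeR, DESeq2 or limma adjusted p from 0.0107 to 1.00) and from −1.78 to −0.95 in KYZY against control (adjusted p from 0.0203 to 1.00). In KYZY against stress the sign of Kif18b turned with limma voom (−0.24) and without the 4 libraries (−0.30), and leaving out 1 library gave −0.41 to 0.41, with −0.10 without stress 3 and −0.41 without KYZY 3. Kif5b in KYZY against stress turned to −0.27 with the cumulus marker covariate and −0.12 without the 4 libraries. The cause was not tested. Log2 fold changes ran from 0.26 to 0.54 for Kif14 and from 1.16 to 1.54 for Kif26a in stress against control, and from 1.21 to 2.51 for Kif26a in KYZY against control. Kif24 ran from −0.34 to −0.18 in KYZY against stress and from −0.29 to −0.15 in KYZY against control. Kif9 ran from −1.17 (limma voom) to −0.14 (cumulus marker covariate) in KYZY against stress. Kif3c reached −0.45 in KYZY against stress without stress 1 and ran from −2.55 to −1.22 in KYZY against control. No scaling moved the median of all genes by more than 0.1. With 3 mice a group, differences as large as −1.37 in Kif18b and 1.96 in Kif26a did not pass the edgeR test.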
